A study of Drosophila melanogaster with 26 samples.

Results

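Oxidative phosphorylation is the route by which mitochondria turn the oxidation of food into ATP, and its nuclear-encoded subunits are described here in Drosophila larvae mutant for either or both of a pair of transcription factors and that were kept in normal or low oxygen. The genes were chosen by symbol: a symbol that starts with ND- (complex I), UQCR- (complex III), COX and a digit (complex IV) or ATPsyn (ATP synthase, complex V), or that is SdhA to SdhD (complex II) or Cyt-c1 (complex III). Only probe sets annotated to 1 gene were used, and where a gene had several, the brightest stood for it. This gave 70 genes of the 11982 with such a probe set. Of these, 52 were subunits, with 27 in complex I, 3 in complex II, 5 in complex III, 7 in complex IV and 10 in complex V. A further 14 were paralogs whose symbol ends in L, such as COX7AL, and 4 were paralogs with a number after the L, such as COX6AL2; both kinds are shown apart from the subunits.

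The study asked how the fly HIF-alpha protein, encoded by sima, and the estrogen-related receptor dERR, a nuclear receptor, contribute to the transcriptional response to hypoxia. Whole late-L3 larvae, staged by the partial clearing of their gut to between 10 and 4 h before pupariation, spent 6 h either in normoxia or under 4% oxygen, at 25°C, and at least 10 larvae were pooled for each RNA sample. The groups were the double-mutant (sima07607,dERR1/sima07607,dERR2), the dERR mutant (dERR1/dERR2), the sima mutant (sima07607, homozygous for a P-element inserted in the first intron of the gene) and the w1118 control, each in hypoxia and in normoxia. Each group had 3 arrays except w1118 in hypoxia, which had 5. The sima allele was kept over a balancer chromosome that carries a GFP marker, and homozygous larvae were sorted by its absence in the mid second instar. Each mutation was carried by every cell of the animal, so no tissue can be singled out, and in RNA from whole larvae fewer cells of a type and less RNA per cell cannot be told apart. The study's methods call the samples of a group biological replicates, each a pool of larvae. Whether the pools came from separate cultures is not said there, so the p-values measure the spread between these samples.

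Complexes I and II pass electrons from NADH and succinate to ubiquinone, complex III passes them on to cytochrome c, and complex IV hands them to oxygen. Complexes I, III and IV pump protons across the inner membrane, and the ATP synthase lets them back to make ATP. The subunits are built from both genomes, and only nuclear genes are treated here. Fly larvae use aerobic glycolysis for much of their growth, and dERR is known as a regulator of that state. In Drosophila several of the subunits have a second, testis-expressed gene, and many of the paralogs ending in L are of this kind.

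The median subunit stood above w1118 in each mutant, with the largest median of normoxia in dERR mutants and similar medians in dERR mutants and double-mutants in hypoxia. In normoxia the median change of the 52 subunits, in log2 units, was 0.20 in double-mutants, 0.62 in dERR mutants and 0.11 in sima mutants relative to w1118. In hypoxia the 3 medians were 0.58 in double-mutants, 0.56 in dERR mutants and 0.43 in sima mutants. Over all probe sets the medians in normoxia were 0.06, 0.02 and 0.07 in this order, so the sima value of 0.11 was little above its background. In hypoxia they were -0.005, 0.01 and 0.007. For hypoxia against normoxia no member was called in any genotype, and no test compared the mutants with each other. The L paralogs went the other way in normoxia, with medians of -1.14 in double-mutants, -0.76 in dERR mutants and -1.33 in sima mutants. The levels of muscle and testis markers moved along with both patterns, and their values stand beside the results below.

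The 26 arrays carried 18769 probe sets after 183 control probe sets were left out, and the median intensity of an array lay between 35.70 and 46.13. The lowest medians, 35.70 and 37.86, belonged to w1118 hypoxia replicates 4 and 5. Replicates 2 and 3 of w1118 in hypoxia were unusually alike, with a mean absolute difference of 0.16 on the log2 scale over all probe sets, but they were not the same array. The sima transcript was low in every library labelled as mutant for it. Its mean log2 intensity in hypoxia was 5.55 in double-mutants and 5.23 in sima mutants, against 7.86 in w1118, and in normoxia it was 5.89 in double-mutants and 5.61 in sima mutants, against 7.81 in w1118. The 4 changes lay between -2.63 and -1.91 and all passed the test. The ERR probe set was dim, with a mean of 4.91 that is below the median of 5.45 over all probe sets, and its change was -0.89 ± 0.13 (SE, adjusted p = 0.000107) in dERR mutants and -0.42 ± 0.13 (SE, adjusted p = 0.0292) in double-mutants in hypoxia. In normoxia the change of ERR was -0.33 ± 0.14 (SE, adjusted p = 0.140) in dERR mutants and 0.06 ± 0.14 (SE, adjusted p = 0.817) in double-mutants. What the alleles leave for this probe set to bind was not tested, so ERR is a weak check of the labels.

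Averaged over the 52 subunits, the log2 intensity of an array showed both the order of the groups and the spread within them. The means in hypoxia were 10.18 ± 0.37 in double-mutants, 10.15 ± 0.05 in dERR mutants and 10.03 ± 0.21 in sima mutants (SD, n = 3 each), against 9.61 ± 0.17 in w1118 (SD, n = 5). In normoxia they were 9.94 ± 0.33 in double-mutants, 10.30 ± 0.35 in dERR mutants and 9.84 ± 0.12 in sima mutants, against 9.72 ± 0.03 in w1118 (SD, n = 3 each). All arrays of dERR mutants lay above all arrays of w1118 in either oxygen level, with 10.065 to 10.70 in normoxia and 10.10 to 10.19 in hypoxia in dERR mutants, against 9.69 to 9.75 and 9.46 to 9.90 in w1118. The double-mutant arrays overlapped with those of w1118 in both. The subunits moved together from array to array: dERR normoxia replicate 2 was the highest of its group for 50 of 52 subunits, double-mutant normoxia replicate 2 for 51, double-mutant hypoxia replicate 1 for 50 and w1118 hypoxia replicate 1 for 46. The subunits are thus not independent of each other, and a count of subunits describes a shift shared by an array as well as single genes.

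**Figure D1:**
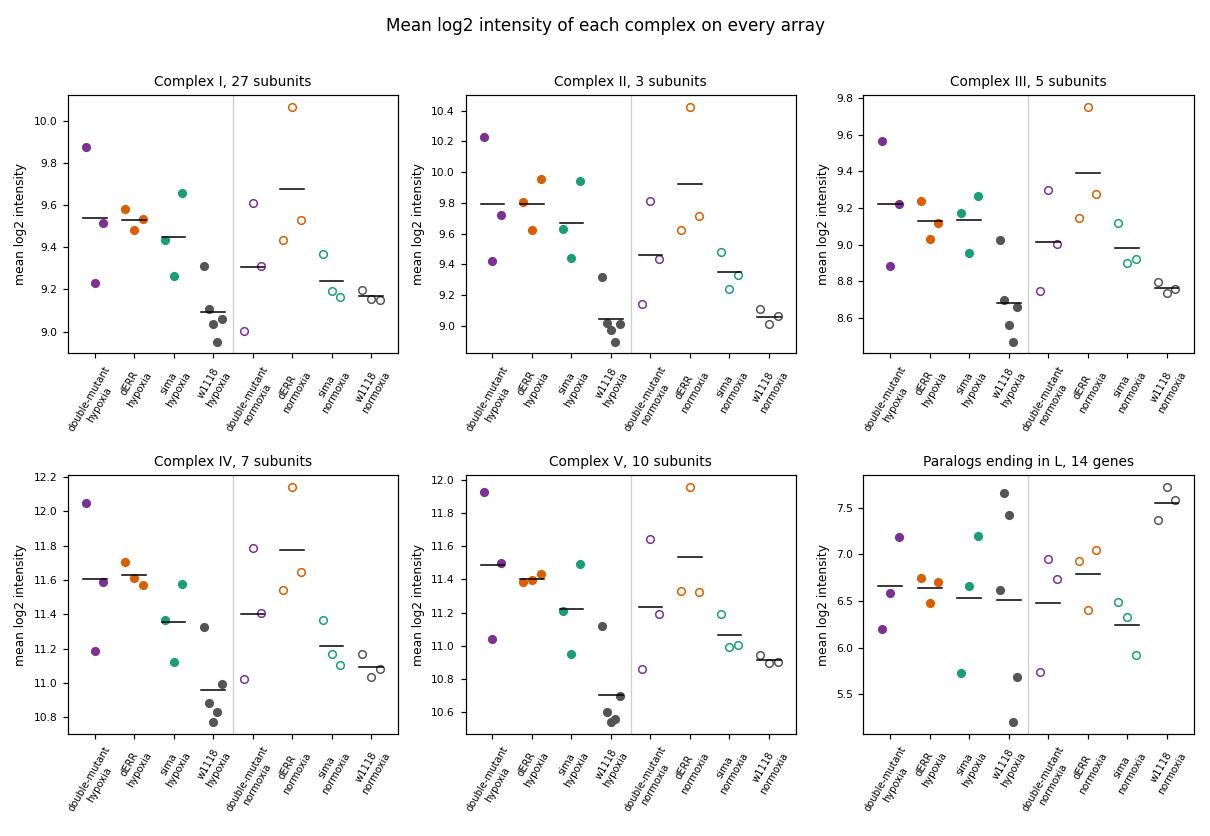
Mean log2 intensity of the subunits of complexes I to V and of the 14 L paralogs on each of 26 arrays, grouped by genotype in hypoxia (filled) and normoxia (open); each point is 1 array and each black line the mean of a group. All dERR arrays exceed all w1118 arrays of the same oxygen level over the 5 complexes together, while the L paralogs are highest in w1118 in normoxia, with a mean of 7.55.

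The first question is whether hypoxia changed the subunits. No member of the 70 was called in hypoxia against normoxia in any genotype, where a call needs a change of at least 1.5-fold and an adjusted p below 0.01 in limma's fit across all probe sets. Over all probe sets 4.72% were called in double-mutants, 0.389% in dERR mutants, 3.60% in sima mutants and 5.15% in w1118. With adjusted p below 0.05 and no fold minimum, 1 member was called in w1118 and 0 in the other genotypes, beside 13.4% of all probe sets in w1118, 9.80% in double-mutants, 1.93% in dERR mutants and 8.14% in sima mutants. That member was ND-MLRQ, a small subunit named for complex I whose mammalian counterpart NDUFA4 has been reassigned to complex IV. ND-MLRQ had log2 intensities of 11.98, 11.86, 11.74, 11.66 and 11.88 in hypoxia, against 12.41, 12.29 and 12.21 in normoxia in w1118. Its 5 hypoxia arrays all lay below its 3 normoxia arrays, and the change was -0.48 ± 0.14 (SE, adjusted p = 0.0219).

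The median change of the 52 subunits in hypoxia was 0.25 in double-mutants, -0.15 in dERR mutants, 0.19 in sima mutants and -0.11 in w1118. Changes were positive for 48 subunits in double-mutants, 5 in dERR mutants, 48 in sima mutants and 15 in w1118. The median over all probe sets lay between -0.004 and 0.06 in these comparisons. In w1118 the largest positive change was that of SdhB, at 0.32, and the most negative that of ND-B8, at -0.52. With each array centred on its own median the w1118 median of the subunits was 0.04, and that of all probe sets 0.21. The sign in dERR mutants rested on replicate 2 in normoxia, without which the median of the subunits was 0.05. No interaction of genotype with hypoxia was called by either rule for any member, beside 0.480%, 0.107% and 0.314% of all probe sets for the double-mutant, dERR and sima by the stricter rule and 1.20%, 0.416% and 0.650% by the looser one. The median interaction of the subunits was 0.36 for the double-mutant, -0.08 for dERR and 0.31 for sima.

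The second question is how the subunits stood in each mutant against w1118 in normoxia. In dERR mutants 2 members were called, both higher, beside 1.48% of all probe sets called higher. With adjusted p below 0.05, 23 subunits were higher, beside 5.44% of all probe sets. For 47 of 52 subunits every dERR array lay above every w1118 array, beside 20% of all probe sets (3763 of 18769). The 23 subunits came from every complex, with 12 in complex I, 3 in complex II, 2 in complex III, 4 in complex IV and 2 in complex V. These counts leaned on dERR normoxia replicate 2, and without that array neither member was called and the median of the subunits was 0.40.

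In sima mutants 1 member was called higher in normoxia, beside 0.943% of all probe sets, and the same member was the 1 subunit with adjusted p below 0.05, beside 2.24%. In double-mutants 0 were called higher, beside 0.495% of all probe sets, and 0 were higher with adjusted p below 0.05, beside 1.44%. Every array of the mutant lay above every w1118 array for 6 subunits in double-mutants and 22 in sima mutants, beside 21.5% and 23.5% of all probe sets in these comparisons. The share of 6 in 52 is below the background in double-mutants.

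In hypoxia more subunits were called, and all of those called were higher in the mutant. In double-mutants 9 were called, beside 3.01% of all probe sets called higher. In dERR mutants 11 were called, beside 2.40%, and in sima mutants 0, beside 2.44%. With adjusted p below 0.05 the counts were 35 in double-mutants, 27 in dERR mutants and 7 in sima mutants, beside 6.83%, 6.82% and 6.52% of all probe sets. Every mutant array lay above every w1118 array for 15 subunits in double-mutants, 36 in dERR mutants and 14 in sima mutants, beside 6.97%, 5.94% and 8.12%. The 3 comparisons share their 5 w1118 arrays, so a count in 1 of them is not independent of the others.

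Single arrays moved these counts. In double-mutants in hypoxia the count of members called was 0 without double-mutant hypoxia replicate 1, 0 without replicate 3 and 29 without replicate 2. In dERR mutants it was 0 without dERR hypoxia replicate 2 and 24 without w1118 hypoxia replicate 1. In sima mutants it was 4 without dERR normoxia replicate 2, an array that enters only through the estimate of the spread. The median change of the subunits was less dependent: without double-mutant hypoxia replicate 1 it was 0.41 in double-mutants in hypoxia, and without w1118 hypoxia replicate 1 it was 0.65 in double-mutants, 0.61 in dERR mutants and 0.50 in sima mutants.

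**Figure D2:**
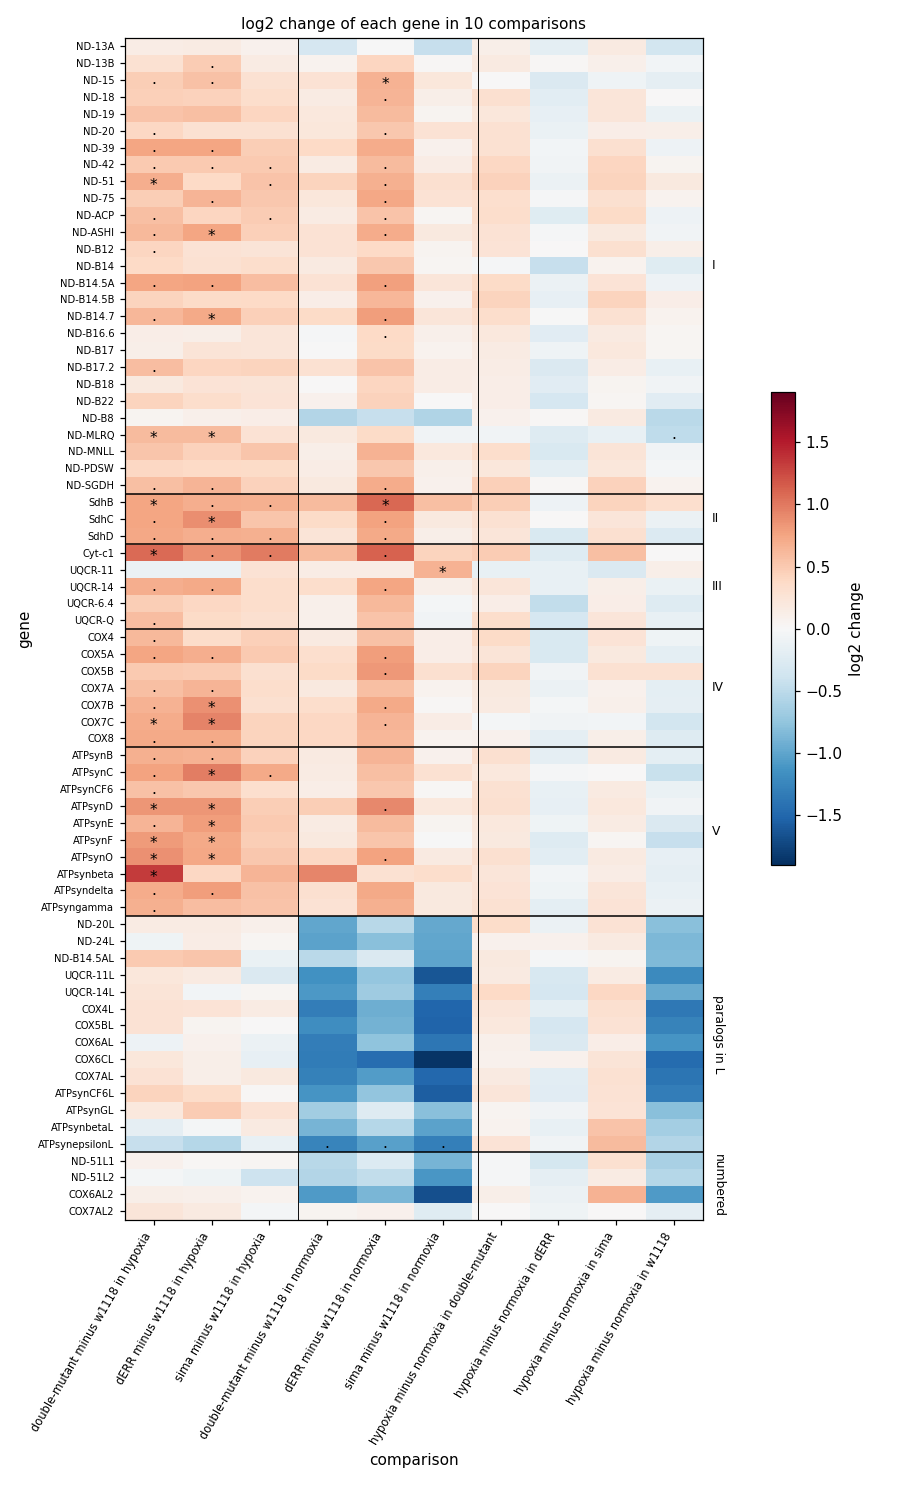
Log2 change of the 70 genes (rows, by complex, with the paralogs apart) in 10 comparisons (columns: the mutants against w1118 and hypoxia against normoxia); colour gives the change, an asterisk a change of at least 1.5-fold with adjusted p below 0.01 and a dot adjusted p below 0.05 alone. Asterisks gather in the dERR and double-mutant columns in hypoxia, with 11 and 9, and the rows of the 14 L paralogs are negative in the 3 columns of mutants in normoxia. Among the numbered paralogs COX7AL2 is positive there in dERR mutants (0.08) and double-mutants (0.06).

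In the order of arrays within a group, muscle markers moved with the subunits, and midgut markers did so less closely. Of 11 muscle genes listed, 7 were measured by a probe set of 1 gene, and their mean log2 intensity in hypoxia was 10.28 (range 9.51 to 10.94) in double-mutants, 10.73 (10.44 to 11.04) in dERR mutants and 9.89 (9.12 to 10.47) in sima mutants, against 9.17 (8.69 to 10.58) in w1118. In normoxia it was 9.57 (8.86 to 10.39) in double-mutants, 10.92 (10.56 to 11.53) in dERR mutants and 9.29 (8.83 to 10.02) in sima mutants, against 9.13 (8.81 to 9.34) in w1118. All 7 were positive in dERR mutants in both oxygen levels. The median change was 1.67 with 2 of 7 called in normoxia, and 1.46 with 1 of 7 called in hypoxia. Over all probe sets 1.48% and 2.40% were called higher in these comparisons. The highest array of a group was the same for the subunits and the muscle markers in 7 of 8 groups, and the lowest in 6 of 8. For midgut markers these counts were 4 and 6, for hemocyte markers 5 and 4 and for testis markers 4 and 4.

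Midgut markers, 7 of 10 measured, also differed. Their mean in normoxia was 10.30 in double-mutants, 10.68 in dERR mutants and 10.49 in sima mutants, against 9.67 in w1118. In hypoxia it was 10.38 in double-mutants, 11.03 in dERR mutants and 10.58 in sima mutants, against 9.92 in w1118. Of the 7 midgut markers, 5 rose and 2 fell in dERR mutants in normoxia. By the looser rule 4 were higher and 1 lower, beside 5.44% and 3.73% of all probe sets. In hypoxia all 7 midgut markers had positive changes in dERR mutants, with a median of 0.91. There 3 of 7 were called and 4 were higher by the looser rule, against 1 and 6 of the 7 muscle markers. Over all probe sets 2.40% and 6.82% were higher by these rules. Hemocyte markers, 6 of 6 measured, differed too. Their mean in normoxia was 7.95 in double-mutants, 8.19 (range 7.88 to 8.54) in dERR mutants and 7.82 in sima mutants, against 7.16 (7.03 to 7.33) in w1118. The hypoxia means were 8.35 in double-mutants, 8.65 (7.93 to 9.20) in dERR mutants and 7.85 in sima mutants, against 7.76 (6.86 to 8.70) in w1118. The median change of the 6 was 0.55 in normoxia and 0.74 in hypoxia in dERR mutants, against -0.04 and 0.05 in double-mutants, and the part of hemocytes in the subunit changes was not tested. With the array means of the testis, muscle and midgut markers as covariates in the fit, the median change of the subunits in normoxia was 0.05 in double-mutants, -0.001 in dERR mutants and 0.02 in sima mutants. In hypoxia it was 0.24 in double-mutants, 0.03 in dERR mutants and 0.16 in sima mutants, with 2 members called in double-mutants and 0 in the other mutants. The listed midgut genes include Amy-p and Mal-A1. The study reported amylase raised in sima mutants in normoxia and by hypoxia in w1118. The midgut covariate may thus carry part of the response to genotype and oxygen, which was not tested. In normoxia the muscle marker means of dERR mutants (10.56 to 11.53) and of w1118 (8.81 to 9.34) did not overlap. The fit with covariates thus cannot tell genotype and marker level apart there. Muscle is known as a tissue rich in mitochondria, and its part in the subunit changes was not tested.

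Among the 27 subunits of complex I, the largest complex of the chain, ND-MLRQ was called in hypoxia in both mutants without dERR. Its log2 intensities in hypoxia were 12.75, 12.18 and 12.35 in double-mutants and 12.42, 12.51 and 12.34 in dERR mutants, against the 5 w1118 values between 11.66 and 11.98 given above. Both mutants lay wholly above w1118, and the change was 0.60 ± 0.14 in double-mutants (SE, adjusted p = 0.0043) and 0.60 ± 0.14 in dERR mutants (SE, adjusted p = 0.0044). ND-ASHI and ND-B14.7, accessory subunits of the membrane arm, also rose in dERR mutants in hypoxia. The change of ND-ASHI was 0.75 ± 0.17 (SE, adjusted p = 0.0052), and that of ND-B14.7 was 0.71 ± 0.18 (SE, adjusted p = 0.0089). ND-51, the subunit that binds NADH, read 10.24, 9.56 and 9.90 in double-mutants in hypoxia, against 9.67, 9.22, 9.03, 9.05 and 9.10 in w1118. The groups overlapped at w1118 replicate 1, and the change of ND-51 was 0.69 ± 0.17 (SE, adjusted p = 0.0098).

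In normoxia ND-15, an accessory subunit of complex I, was called in dERR mutants. It read 10.27, 10.89 and 10.35 in dERR mutants, against 9.91, 9.86 and 9.77 in w1118, with a change of 0.66 ± 0.14 (SE, adjusted p = 0.0060). The groups did not overlap, but without dERR normoxia replicate 2 the change was 0.47 (adjusted p = 0.0551). In hypoxia ND-15 changed by 0.55 ± 0.12 in dERR mutants (SE, adjusted p = 0.0041), which is short of 1.5-fold. The median change of complex I in hypoxia was 0.46 in double-mutants, 0.40 in dERR mutants and 0.36 in sima mutants, the smallest or next to smallest of the 5 complexes in each.

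Not every complex I subunit followed. ND-13A, a peripheral-arm subunit, had a change of -0.01 in dERR mutants, -0.43 in sima mutants and -0.31 in double-mutants in normoxia, none of which passed either rule. Its 3 sima arrays, at 9.39, 9.12 and 9.12, lay below the 3 w1118 arrays, at 9.58, 9.67 and 9.69. ND-B8 was among the dim members, with a mean of 4.36, and was the lowest of the complex in normoxia, with -0.56 in double-mutants, -0.44 in dERR mutants and -0.57 in sima mutants. In all, 6 of the 70 members had a mean below the median of all probe sets: the subunits ND-B8, ND-B12 and UQCR-11 and the numbered paralogs ND-51L1, ND-51L2 and COX7AL2.

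Complex II, succinate dehydrogenase, was represented by SdhB, its iron-sulfur subunit, and by its membrane anchors SdhC and SdhD. SdhB read 9.55, 10.34 and 9.79 in dERR mutants in normoxia, against 8.84, 8.75 and 8.81 in w1118. Every dERR array was above every w1118 array, and the change was 1.10 ± 0.20 (SE, adjusted p = 0.0021), or 2.14-fold. Without dERR normoxia replicate 2 it was 0.87 (adjusted p = 0.0250). The means of the other mutants lay between these in normoxia, although 1 double-mutant array reached into the dERR range, with 9.09, 9.70 and 9.38 in double-mutants and 9.47, 9.24 and 9.40 in sima mutants, and their changes of 0.60 ± 0.20 and 0.57 ± 0.20 (SE) had adjusted p = 0.117 and 0.108 in the same fit.

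In hypoxia SdhB read 10.32, 9.50 and 9.77 in double-mutants, 9.87, 9.57 and 9.97 in dERR mutants and 9.75, 9.57 and 10.03 in sima mutants, against 9.31, 8.96, 9.05, 9.08 and 9.16 in w1118. None of the 9 mutant arrays overlapped with the 5 of w1118. SdhB rose in double-mutants by 0.75 ± 0.18 (SE, adjusted p = 0.0066), while the change of 0.68 ± 0.18 (SE, adjusted p = 0.0111) in dERR mutants and that of 0.67 ± 0.18 (SE, adjusted p = 0.0170) in sima mutants passed only the looser rule. SdhC rose in dERR mutants in hypoxia, at 10.14, 10.13 and 10.52 against 9.73, 9.34, 9.27, 9.23 and 9.34 in w1118, by 0.88 ± 0.20 (SE, adjusted p = 0.0047). SdhD passed the looser rule in all 3 mutants in hypoxia, with changes of 0.74 in double-mutants, 0.69 in dERR mutants and 0.68 in sima mutants. All 3 subunits of complex II passed the looser rule in dERR mutants in both oxygen levels and in double-mutants in hypoxia, and its median was the highest of the complexes in dERR mutants in normoxia, at 0.76, and in double-mutants in hypoxia, at 0.75.

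Complex III held Cyt-c1, the haem-bearing subunit that hands electrons to cytochrome c, and 4 small subunits. Cyt-c1 read 11.06, 9.91 and 10.53 in double-mutants, 10.45, 10.15 and 10.24 in dERR mutants and 10.40, 10.09 and 10.74 in sima mutants in hypoxia, against 10.06, 9.23, 9.15, 9.18 and 9.47 in w1118. The w1118 replicate 1 reached into the range of the double-mutants but not into that of the other mutants. Cyt-c1 rose in double-mutants by 1.08 ± 0.27 (SE, adjusted p = 0.0082), and its changes of 0.86 (adjusted p = 0.0285) in dERR mutants and 0.99 (adjusted p = 0.0177) in sima mutants passed the looser rule. In normoxia its change was 1.11 ± 0.30 (SE, adjusted p = 0.0248) in dERR mutants, at 10.23, 11.24 and 10.10 against 9.45, 9.37 and 9.43 in w1118.

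UQCR-14, the fly counterpart of mammalian UQCRB, passed the looser rule in dERR mutants in normoxia, at 0.74, and in double-mutants and dERR mutants in hypoxia, at 0.69 and 0.72. UQCR-11 was the 1 subunit called in sima mutants in normoxia. It read 4.54, 4.21 and 4.66 in sima mutants, against 3.70, 3.87 and 3.85 in w1118, with a change of 0.66 ± 0.14 (SE, adjusted p = 0.0081). Its mean of 3.98 was below the median of all probe sets, and it was no longer tested when dim probe sets were left out. In the other mutants UQCR-11 stood apart from the rest of its complex, with -0.11 in both double-mutants and dERR mutants in hypoxia.

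Complex IV, cytochrome c oxidase, was represented by its nuclear-encoded subunits, which surround a core made in the mitochondrion. COX7C read 11.91, 11.02 and 11.43 in double-mutants and 11.56, 11.80 and 11.69 in dERR mutants in hypoxia, against 10.998, 10.60, 10.52, 10.72 and 10.90 in w1118. The groups did not overlap, although the lowest double-mutant array was barely above the highest of w1118. COX7C rose by 0.71 ± 0.18 in double-mutants (SE, adjusted p = 0.0091) and by 0.94 ± 0.18 in dERR mutants (SE, adjusted p = 0.0012). COX7B rose in dERR mutants alone by the stricter rule, at 12.17, 12.15 and 12.18 against 11.70, 11.24, 10.99, 11.15 and 11.42 in w1118, by 0.86 ± 0.19 (SE, adjusted p = 0.0037). Its change of 0.67 (adjusted p = 0.0198) in double-mutants passed the looser rule, and the difference between the mutants was not tested. With adjusted p below 0.05, 6 of 7 members of the complex were higher in double-mutants, 5 in dERR mutants and 0 in sima mutants in hypoxia.

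COX7C was also read by a second, dimmer probe set, which did not behave like the first. Its mean change in normoxia was -1.19 in double-mutants and -0.90 in dERR mutants, where the brighter probe set gave 0.40 and 0.65. In hypoxia, where the brighter probe set was called, the second gave 0.10 (adjusted p = 0.932) in double-mutants and 0.16 (adjusted p = 0.869) in dERR mutants. In w1118 this second probe set averaged 6.94 in normoxia and 5.69 in hypoxia, a pattern closer to that of the paralogs below. The COX7C values given above are those of the brighter probe set alone, and which of the 2 reads COX7C was not tested.

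The ATP synthase had a median change of 0.74 in double-mutants, 0.73 in dERR mutants and 0.50 in sima mutants in hypoxia, which in dERR mutants was the highest of the complexes. All 10 members passed the looser rule in double-mutants and 7 of 10 in dERR mutants. The catalytic subunit ATPsynbeta read 12.07, 10.86 and 11.45 in double-mutants, 10.20, 10.86 and 10.52 in dERR mutants and 10.89, 10.54 and 10.88 in sima mutants, against 10.83, 9.62, 9.65, 10.40 and 10.15 in w1118 in hypoxia. The double-mutant arrays lay above those of w1118, the lowest by a narrow margin, whereas those of the single mutants overlapped with them. ATPsynbeta rose in double-mutants by 1.33 ± 0.28 (SE, adjusted p = 0.0024), or 2.51-fold, and remained called at 0.88 (adjusted p = 0.0090) with the marker covariates. In dERR mutants its change was 0.40 (adjusted p = 0.354) and in sima mutants 0.64 (adjusted p = 0.156). The second probe set of ATPsynbeta gave a change of 0.51 (adjusted p = 0.0457) in double-mutants and 0.58 (adjusted p = 0.0206) in dERR mutants in hypoxia, so the size of the double-mutant change depended on the probe set.

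ATPsynC, which forms the proton-driven ring of the enzyme, showed another order of the mutants. It read 11.90, 11.01 and 11.39 in double-mutants, 11.41, 11.65 and 11.85 in dERR mutants and 11.37, 11.15 and 11.63 in sima mutants in hypoxia, against 11.02, 10.55, 10.47, 10.62 and 10.67 in w1118. ATPsynC rose in dERR mutants by 0.97 ± 0.20 (SE, adjusted p = 0.0022), and its change was 0.77 (adjusted p = 0.0109) in double-mutants and 0.72 (adjusted p = 0.0210) in sima mutants. Its dERR and sima arrays all lay above those of w1118, and 1 double-mutant array lay just below w1118 replicate 1.

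The peripheral stalk of the ATP synthase, which holds the catalytic head still, includes ATPsynO and ATPsynD. ATPsynO rose by 0.86 ± 0.19 in double-mutants (SE, adjusted p = 0.0035) and by 0.74 ± 0.19 in dERR mutants (SE, adjusted p = 0.0099), and ATPsynD by 0.84 ± 0.21 in each (SE, adjusted p = 0.0080 and 0.0081). ATPsynF, a membrane-sector subunit, read 12.50, 11.81 and 12.14 in double-mutants and 12.11, 11.999 and 12.10 in dERR mutants in hypoxia, against 11.69, 11.34, 11.29, 11.10 and 11.30 in w1118. All 6 mutant arrays lay above the 5 of w1118. The changes of ATPsynF were 0.81 ± 0.18 (SE, adjusted p = 0.0048) and 0.73 ± 0.18 (SE, adjusted p = 0.0095), and ATPsynE, another membrane-sector subunit, rose in dERR mutants by 0.80 ± 0.19 (SE, adjusted p = 0.0070). In normoxia complex V had 2 members past the looser rule in dERR mutants, ATPsynD at 0.92 (adjusted p = 0.0185) and ATPsynO at 0.77 (adjusted p = 0.0278).

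**Figure D3:**
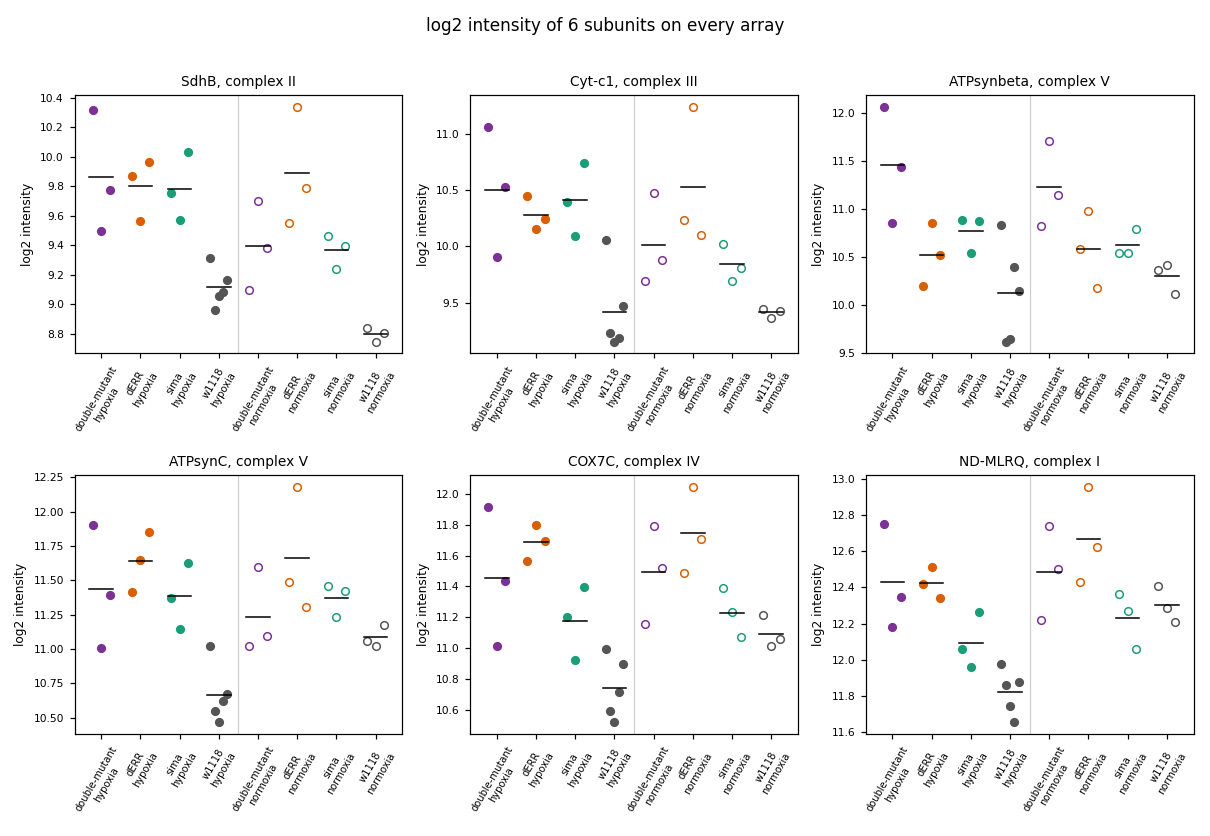
Log2 intensity of SdhB, Cyt-c1, ATPsynbeta, ATPsynC, COX7C and ND-MLRQ on each array, by genotype in hypoxia (filled) and normoxia (open), with the mean of each group as a black line. SdhB in w1118 stays between 8.75 and 9.31 over both oxygen levels, and ATPsynbeta reaches 12.07 in a double-mutant array in hypoxia.

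The subunits whose symbols follow another pattern were taken as a check of the choice by symbol. All 6 listed were measured: blw, the alpha subunit of the ATP synthase, sun, its epsilon subunit, RFeSP, the Rieske protein of complex III, ox, a small subunit of that complex, and cype and levy of complex IV. Their median change was 0.65 in dERR mutants in normoxia, with 2 of 6 higher by the looser rule, beside 5.44% of all probe sets. In hypoxia it was 0.70 with 4 of 6 in double-mutants, 0.70 with 5 of 6 in dERR mutants and 0.36 with 1 of 6 in sima mutants. Over all probe sets 6.83%, 6.82% and 6.52% were higher by that rule. The member called by the stricter rule was blw, with 0.78 ± 0.20 (SE, adjusted p = 0.0097) in double-mutants and 0.81 ± 0.20 (SE, adjusted p = 0.0072) in dERR mutants.

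The 14 L paralogs were lower in the mutants in normoxia, but few passed a test. COX7AL, a paralog of the complex IV subunit COX7A, read 5.82, 7.48 and 7.18 in double-mutants, 7.20, 6.42 and 7.54 in dERR mutants and 6.96, 6.78 and 6.14 in sima mutants, against 7.99, 8.30 and 8.06 in w1118. COX4L read 6.90, 8.43 and 8.19 in double-mutants, 8.45, 7.71 and 8.52 in dERR mutants and 7.87, 7.83 and 7.22 in sima mutants, against 9.04, 9.33 and 9.09 in w1118. In neither gene did a mutant array reach the w1118 range. The changes of COX7AL were -1.29 ± 0.61 in double-mutants and -1.49 ± 0.61 in sima mutants (SE), with adjusted p = 0.236 and 0.152.

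Every mutant array lay below every w1118 array for 13 of 14 L paralogs in double-mutants, 11 in dERR mutants and 14 in sima mutants in normoxia, beside 17.4%, 20.8% and 16.4% of all probe sets. None was called by the stricter rule. ATPsynepsilonL was the 1 paralog with adjusted p below 0.05 in each, beside 1.02% of all probe sets lower by that rule in double-mutants, 3.73% in dERR mutants and 1.39% in sima mutants. It read 5.83, 6.46 and 6.23 in double-mutants, 6.25, 6.21 and 6.70 in dERR mutants and 6.53, 6.08 and 5.75 in sima mutants, against 7.10, 7.70 and 7.47 in w1118. Its changes were -1.25 ± 0.32 (SE, adjusted p = 0.0433), -1.04 ± 0.32 (SE, adjusted p = 0.0484) and -1.30 ± 0.32 (SE, adjusted p = 0.0251) in this order. When only the sima and w1118 arrays in normoxia entered the fit, 16 of the 18 paralogs were called lower. The changes were the same, and the spread was estimated from those arrays alone. The share of all probe sets called lower in that fit is not given here, so the count has no background beside it.

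The 4 numbered paralogs had median changes of -0.54 in double-mutants, -0.37 in dERR mutants and -0.999 in sima mutants in normoxia. COX6AL2 read 5.39, 5.500 and 4.96 in sima mutants, against 6.82, 7.03 and 7.003 in w1118, with a change of -1.67 ± 0.54 (SE, adjusted p = 0.0865). COX7AL2 changed little, at 0.06 in double-mutants and -0.23 in sima mutants, but its probe set is dim. Over the 12 paralogs that could be paired by symbol with a measured member, the change of the paralog lay below that of its subunit in 12 pairs for each mutant in normoxia. The signs were opposite in 11 pairs in double-mutants, 11 in dERR mutants and 12 in sima mutants.

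**Figure D4:**
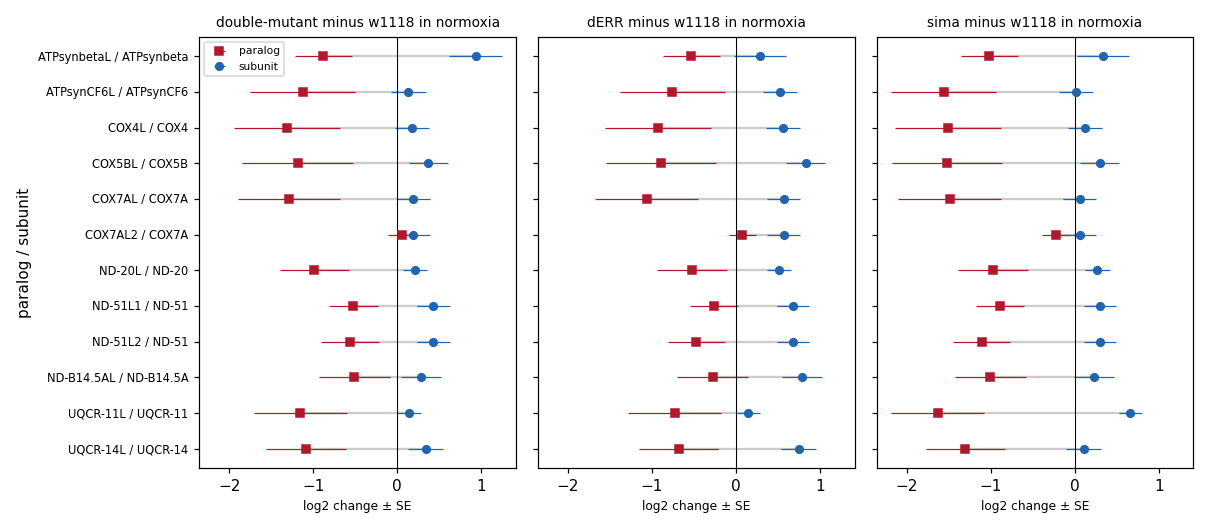
Log2 change against w1118 in normoxia of 12 paralogs and the 10 subunits they pair with (COX7A and ND-51 each pair with 2) in double-mutants, dERR mutants and sima mutants; points are fitted changes and bars their SE. The paralog lies below its subunit in all 12 pairs of each panel, and the SE of the paralogs reaches 0.66.

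Hypoxia in w1118 went with lower paralogs as well, but unevenly over the arrays. The median change of the L paralogs was -1.04, all 14 changes were negative, and none passed a test. COX4L read 7.99, 9.20, 8.96, 5.91 and 6.88 in hypoxia, against 9.04, 9.33 and 9.09 in normoxia. Replicates 2 and 3 in hypoxia thus reached the normoxia range or nearly so, and replicates 1, 4 and 5 lay below it. In hypoxia the L paralogs of the mutants had medians of 0.22 in double-mutants, 0.13 in dERR mutants and 0.03 in sima mutants relative to w1118, whose own arrays spanned 5.20 to 7.66 in the mean of the 14.

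Testis markers followed the paralogs closely. All 12 listed were measured, and their mean log2 intensity in normoxia was 7.20 (range 6.52 to 7.64) in double-mutants, 7.55 (7.08 to 7.89) in dERR mutants and 7.01 (6.76 to 7.20) in sima mutants, against 8.31 (8.07 to 8.51) in w1118. In hypoxia it was 7.43 in double-mutants, 7.35 in dERR mutants and 7.30 in sima mutants, against 7.29 (5.98 to 8.42) in w1118. The highest array of a group was the same for the testis markers and the paralogs in 7 of 8 groups, and the lowest in 8 of 8. All 12 markers had negative changes in each mutant in normoxia, with medians of -1.12 in double-mutants, -0.74 in dERR mutants and -1.35 in sima mutants. With the marker means as covariates the median change of the L paralogs was -0.15 in double-mutants, -0.17 in dERR mutants and -0.23 in sima mutants in normoxia, and -0.09 for hypoxia in w1118. The sources used here do not give the sex of the pooled larvae.

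**Figure D5:**
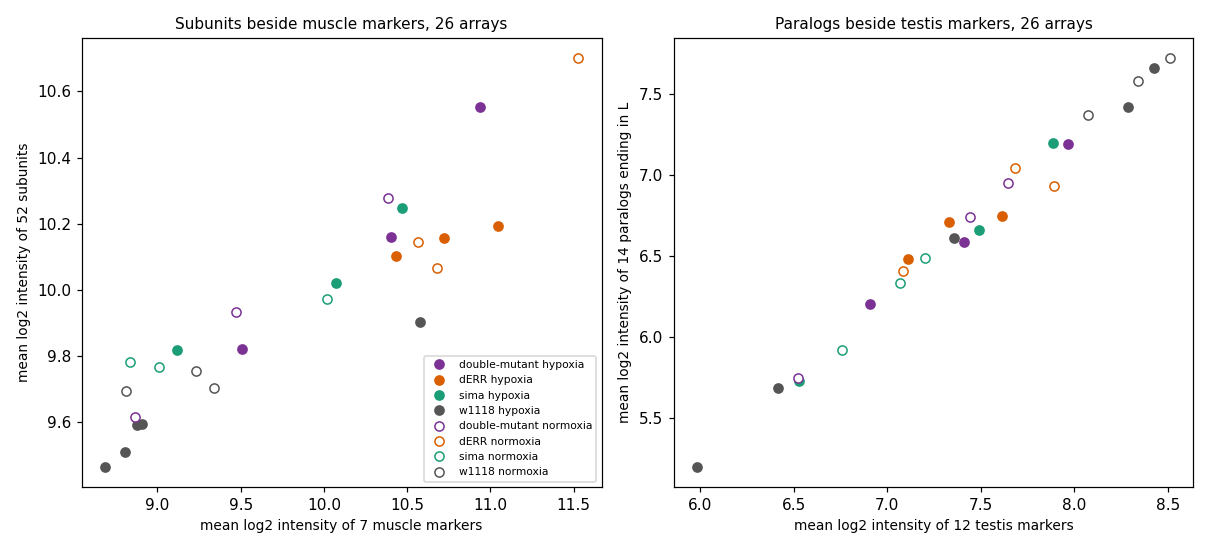
Left, mean log2 intensity of the 52 subunits against that of 7 muscle markers; right, mean of the 14 L paralogs against that of 12 testis markers; each point is 1 of 26 arrays, coloured by genotype and filled for hypoxia. In the left panel the arrays of dERR mutants lie to the right, with muscle means of 10.44 to 11.53, and the arrays line up along a rising band in the right panel.

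Genes that assemble the complexes were taken from a list. Of 18 assembly factors listed, 12 were measured. In hypoxia 1 was called higher and 1 (Sirup) lower in double-mutants, 0 in dERR mutants and 2 higher in sima mutants, relative to w1118. Over all probe sets 3.01%, 2.40% and 2.44% were called higher in these comparisons, and 571 of 18769 were called lower in double-mutants. Cox10, an enzyme on the route to the haem A of complex IV, rose by 0.76 ± 0.16 in double-mutants (SE, adjusted p = 0.0030) and by 0.98 ± 0.16 in sima mutants (SE, adjusted p = 0.000376). Scox, a copper chaperone of the same complex, rose in sima mutants by 0.62 ± 0.12 (SE, adjusted p = 0.0013). In normoxia none was called in any mutant. The median change of the 12 factors in normoxia was -0.07 in double-mutants, 0.19 in dERR mutants and 0.08 in sima mutants. Under hypoxia the medians were 0.09 in double-mutants, 0.05 in dERR mutants and 0.36 in sima mutants. By the looser rule 3, 2 and 7 of 12 were higher in these, beside 6.83%, 6.82% and 6.52% of all probe sets.

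The inner membrane also holds carriers, of which the ADP/ATP translocases and phosphate carriers supply the ATP synthase and the uncoupling proteins form another branch of the same family. All 8 listed were measured, and sesB, the ADP/ATP translocase, rose in dERR mutants by 0.99 ± 0.22 in normoxia (SE, adjusted p = 0.0077) and by 0.94 ± 0.19 in hypoxia (SE, adjusted p = 0.0023). Mpcp1, a mitochondrial phosphate carrier, passed the looser rule in dERR mutants in normoxia at 2.34 ± 0.61 (SE, adjusted p = 0.0226). Bmcp, an uncoupling protein, fell in double-mutants in normoxia, with a change of -0.62 ± 0.12 (SE, adjusted p = 0.0063). In dERR mutants 4 of the 8 carriers had positive changes in normoxia and 5 in hypoxia. In hypoxia 7 of 8 were positive in double-mutants and 7 in sima mutants, where sesB passed the looser rule at 0.73 (adjusted p = 0.0125) and 0.64 (adjusted p = 0.0327).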

How the data were processed

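Whole-larva RNA was hybridised to Affymetrix Drosophila Genome arrays, and the deposited values are intensities on a linear scale that the authors made by RMA (robust multi-array average). No source used here gives the RMA version or says if the 26 arrays went through it jointly. The values were taken to log2, and limma 3.58.1 in R 4.3.3 fitted 8 group means to 18769 probe sets, with Benjamini-Hochberg adjustment over all of them and 13 comparisons drawn from the fit. The study's methods used SAM for its calls, which was not run; limits of 1.5-fold and an adjusted p of 0.01 were set for every comparison here, whereas the study set a false discovery rate per comparison and relaxed it for hypoxia in dERR mutants. Log2 changes are the mutant minus w1118 or hypoxia minus normoxia. The script was tested on simulated data. Probe sets were named from the platform annotation, which pairs 13647 probe sets with a single gene, 402 with more and leaves 4903 unnamed. The number of arrays limits the precision. The members and lists were chosen with earlier results of these data known. Named genes were the brightest of each complex, those called, those with the largest or smallest change, and the paralogs. COX6AL, COX6CL and ATPsynepsilonL were set among the paralogs by their last letter. Probe sets of several genes that hold COX6B, COX6AL2, ATPsynG or ND-AGGG were left out, and SdhA, UQCR-C1, UQCR-C2, ND-23, ND-24, ND-30, ND-49, ND-B15 and ND-MWFE were not analysed here. Alternatives changed the call rule, scaling, probe sets, arrays and covariates. Replicate numbers did not pair the arrays.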

Additional observations from a re-analysis of the deposited data

Results flagged for a closer look

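In w1118 in hypoxia, the only group with more than 3 arrays, 79 quantities were tested for an array far from the others (the 70 members, the complexes and the summary levels), and 12 exceeded Dixon's critical value of 0.71, where chance gives about 1 in 20. In each of the 12 it was replicate 1 that lay above the rest. The gap to its nearest neighbour as a share of the whole range was 0.823 for ATPsyndelta, 0.782 for ATPsyngamma, 0.762 for COX4, 0.757 for COX5A, 0.972 for COX7A and 0.728 for ND-75. It was 0.840 for ND-B18, 0.871 for ND-PDSW, 0.833 for ND-SGDH and 0.765 for SdhC, and 0.720 and 0.725 for the mean levels of complex II and complex V. The same array had the highest muscle marker mean of its group, at 10.58. Since the subunits moved together from array to array, these are not 12 separate events.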

How the results depend on the processing

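The reported counts of members called were 0, 1, 2, 0, 0, 11 and 9 for hypoxia in w1118, sima mutants, dERR mutants and double-mutants in normoxia and sima mutants, dERR mutants and double-mutants in hypoxia against w1118, and they depended on the settings more than the directions did. With adjusted p below 0.05 and no fold minimum the same counts were 1, 2, 24, 1, 7, 27 and 35. All these counts take both directions together. In normoxia the 2, 24 and 1 each include ATPsynepsilonL, which was lower, and the 1 for hypoxia in w1118 is ND-MLRQ, also lower. With each array centred on its median they were 0 in sima and 1 in dERR mutants in normoxia and 3 in dERR mutants and 3 in double-mutants in hypoxia, and centring put the median of all probe sets for hypoxia in w1118 at 0.21, against 0.06 as reported. Quantile normalization gave 0 in sima mutants in normoxia and 5 in double-mutants in hypoxia. With only the groups compared in the fit, the counts were 17 in sima and 0 in dERR mutants in normoxia and 1 in dERR mutants and 0 in double-mutants in hypoxia. Leaving out dim probe sets gave 0 in sima mutants in normoxia and 14 in double-mutants in hypoxia. With w1118 hypoxia replicates 2 and 3, and 4 and 5, averaged, they were 0 in sima mutants in normoxia, and 1 in dERR mutants and 0 in double-mutants in hypoxia, with fewer arrays in the fit. With marker covariates they were 0 in sima and 0 in dERR mutants in normoxia and 0 in dERR mutants and 2 in double-mutants in hypoxia. Leaving out 1 array at a time gave 0 to 2, 0 to 3 and 0 to 0 in sima mutants, dERR mutants and double-mutants in normoxia, 0 to 4, 0 to 24 and 0 to 29 in hypoxia, and 0 to 0 for hypoxia against normoxia and the interactions. The cause was not tested unless given.

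The replicate numbers did not pair the arrays. Over 84 same-numbered pairs the median correlation of their deviations was 0.02, and 30 exceeded 0.1. Over 168 pairs with different numbers the median was 0.008, and 59 exceeded 0.1. Of 24 arrays, 9 correlated best with their own number. With the replicate number as a block, 3 members were called in sima mutants, 1 in dERR mutants and 1 in double-mutants in normoxia, and 1 in dERR mutants and 1 in double-mutants in hypoxia. Under the block the sign turned for COX7AL2 in hypoxia in w1118 (0.023), for ND-13A in sima mutants in hypoxia (-0.029) and for ND-B8 in hypoxia in dERR mutants (-0.19) and double-mutants (-0.23).

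The report names 158 changes, 23 of them called, and the settings other than leaving out 1 array gave 1248 values for them. Of these, 1074 kept their direction and side of the threshold, 107 were weaker, 27 stronger and 40 turned sign. Most named changes were not called, so many of the 1074 only stayed uncalled. The weaker ones included 22 with marker covariates, 21 with only the groups compared, 20 with the replicate block, 20 with replicates averaged and 16 with centring. None of the changes called in the report turned sign. The changes that turned sign with centring were ATPsynD for hypoxia in w1118 (0.080) and ATPsynF (0.14) and UQCR-Q (0.079) in sima mutants in normoxia. With the mean of all probe sets it was COX7C in double-mutants in normoxia (-0.40). With marker covariates, hypoxia in w1118 gave 0.12 for ATPsynGL, 0.021 for COX5BL, 0.039 for COX7AL2 and -0.056 for UQCR-11. Sima mutants in normoxia gave -0.12 for ATPsynbeta, 0.019 for ATPsynCF6L, 0.29 for ATPsynGL, 0.064 for COX5BL, 0.040 for COX7AL2, -0.34 for COX7B and 0.0023 for UQCR-Q. The dERR mutants in normoxia gave -0.72 for ATPsynbeta, 0.13 for ATPsynCF6L, 0.31 for ATPsynGL, -0.10 for COX4, -0.056 for COX7AL2, 0.30 for ND-51L2 and 0.46 for ND-B14.5AL. Double-mutants in normoxia gave -0.046 for ATPsynCF6, 0.22 for ATPsynCF6L, 0.29 for ATPsynGL, -0.046 for COX4, 0.18 for COX5BL, 0.048 for ND-51L2, 0.35 for ND-B14.5AL and 0.035 for UQCR-11L. In hypoxia it was -0.086 for COX7B and -0.094 for ND-13A in sima mutants, -0.29 for ATPsynbeta, -0.24 for COX4 and -0.17 for ND-B8 in dERR mutants, and -0.092 for ND-B8 in double-mutants.

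Leaving out 1 array turned the sign of 9 results. The ranges were -0.062 to 0.31 for ATPsynCF6, -0.034 to 0.36 for COX4, -0.12 to 0.26 for COX7AL2 and -0.097 to 0.32 for UQCR-6.4 in double-mutants in normoxia. They were -0.10 to 0.076 for ATPsynF and -0.084 to 0.13 for COX7B in sima mutants in normoxia, -0.053 to 0.16 for ND-13A in sima mutants in hypoxia, and -0.039 to 0.21 and -0.14 to 0.17 for ND-B8 in dERR mutants and double-mutants in hypoxia.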

Other observations

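Sirup, the fly counterpart of the complex II assembly factor SDHAF4, stood apart from the complex it serves. In hypoxia its log2 intensities lay between 12.87 and 13.16 in w1118, against 10.06 to 11.21 in normoxia, and it rose by 2.47 ± 0.27 (SE, adjusted p = 3e-06). It also rose by 1.55 ± 0.30 in double-mutants (SE, adjusted p = 0.0018) and by 2.01 ± 0.30 in dERR mutants (SE, adjusted p = 0.0014), while its change in sima mutants was 0.39 ± 0.30 (SE, adjusted p = 0.571). Against w1118 in hypoxia it was lower by the stricter rule in double-mutants, at -1.64 ± 0.27 (SE, adjusted p = 0.000327), and by the looser rule in sima mutants, at -1.09 ± 0.27 (SE, adjusted p = 0.0111). The interaction of sima with hypoxia was -2.08 ± 0.41 (SE, adjusted p = 0.0134) for Sirup. This value also holds the difference in normoxia, where Sirup changed by 0.99 ± 0.30 in sima mutants against w1118 (SE, adjusted p = 0.0741). The other changes in normoxia were -0.72 ± 0.30 in double-mutants (SE, adjusted p = 0.196) and 0.23 ± 0.30 in dERR mutants (SE, adjusted p = 0.637). None of SdhB, SdhC and SdhD was called in hypoxia against normoxia in any genotype.

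Coa7, a factor named for complex IV assembly, fell in hypoxia in double-mutants, with a change of -0.75 ± 0.11 (SE, adjusted p = 7.26e-05), and in sima mutants, with -0.65 ± 0.11 (SE, adjusted p = 0.000399). In w1118 its change was -0.57 ± 0.10 (SE, adjusted p = 0.000319), just short of 1.5-fold, and in dERR mutants it was -0.34 ± 0.11 (SE, adjusted p = 0.116). Of 7 listed regulators of mitochondrial biogenesis 5 were measured. PolrMT, the mitochondrial RNA polymerase, rose in hypoxia in double-mutants by 1.12 ± 0.16 (SE, adjusted p = 8.93e-05) and in sima mutants by 1.21 ± 0.16 (SE, adjusted p = 5.07e-05), and its change was 0.003 (adjusted p = 0.996) in dERR mutants and 0.31 (adjusted p = 0.161) in w1118. The gene ewg, the fly counterpart of NRF1, fell against w1118 in hypoxia in double-mutants, with -0.79 ± 0.16 (SE, adjusted p = 0.0015), and in sima mutants, with -0.67 ± 0.16 (SE, adjusted p = 0.0062). In dERR mutants it passed the looser rule, with -0.57 ± 0.16 (SE, adjusted p = 0.0144) in hypoxia and -0.58 ± 0.17 (SE, adjusted p = 0.0411) in normoxia. The 3 paralogs named otherwise, SdhAL, SdhBL and Cyt-c1L, had negative changes in all 3 mutants in normoxia, with medians of -0.87 in double-mutants, -0.57 in dERR mutants and -0.97 in sima mutants, and none passed a test.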
